A study of Mus musculus with 6 samples.

Results

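Tenascins, thrombospondins and further matricellular proteins were examined in cancer-associated fibroblasts (CAFs) of mouse mammary tumors through 10 genes: Tnc, Tnxb, Thbs1, Thbs2, Thbs3, Thbs4, Postn, Sparc, Spp1 and Smoc2. They were taken by symbol from a table of 27179 genes, all 10 were found, and all 10 were among the 14855 genes that passed the filter on low counts. RNA came from raGFP-Wnt1 mice, in which the MMTV promoter drives a Wnt1 transgene in mammary epithelium and 1 copy of a Pdgfra H2B-GFP reporter labels the nuclei of Pdgfra-expressing cells. All 6 libraries carried both alleles. Lineage-negative, GFP-positive cells (depleted of CD45-positive leukocytes, CD31-positive endothelium and erythroid cells) of 3 tumors were sorted into CD34 negative and CD34 positive CAFs, which gave 3 libraries per group, each pair from 1 tumor. The series text also calls the CD34 negative fraction CD34-low, the reporter leaves CAFs without Pdgfra outside the sort, and the age of the mice was not given in the sources used here. Positive log2 differences mean higher expression in CD34 negative CAFs throughout.

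Matricellular proteins are secreted into the extracellular matrix but act less as scaffold than as adaptors: they bind collagens, proteases and growth factors and signal to cells through integrins, CD44, CD47 and syndecans. Many are sparse in resting connective tissue and abundant in wounds, in bone and in the stroma of tumors, where fibroblasts are a main source. Tenascin-C and tenascin-X are large multidomain glycoproteins with opposite habits: tenascin-C appears in remodelling tissue, whereas tenascin-X belongs to mature connective tissue and stabilises collagen fibrils. Thrombospondins 1 and 2 form trimers that restrain angiogenesis, thrombospondins 3 and 4 form pentamers without that domain, periostin and SPARC bind collagen, and osteopontin (Spp1) and SMOC2 link matrix to cell surface receptors and growth factors.

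The genes lie on 7 chromosomes of the mouse build GRCm38.p6 in RefSeq and all code for proteins. Tnxb (chr17:34660453-34719815), Thbs2 (chr17:14665500-14694262) and Smoc2 (chr17:14279490-14404790) share chromosome 17, and Smoc2 and Thbs2 are neighbors, with 261 kb between them that holds 2 long noncoding genes, not analysed here. Tnc lies at chr4:63959785-64047015, Thbs1 at chr2:118111876-118127133, Thbs3 at chr3:89215180-89226841, Thbs4 at chr13:92751586-92794818, Postn at chr3:54359267-54391041, Sparc at chr11:55394159-55420080 and Spp1 at chr5:104435111-104441053. Within its span, Tnc overlaps the noncoding gene 8030451A03Rik, which held 525 counts over the 6 libraries against 355920 for Tnc, and Smoc2 overlaps 4930474M22Rik, with 76 counts against 252334. Whether counting used strand was not stated, so reads in such overlaps cannot be assigned with certainty. The overlap of 385 bases between Tnxb and the pseudogene Cyp21a2-ps was not analysed here.

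Promoter windows are shown for the 4 genes with such a window among those that differed between the CD34 fractions of each tumor, as described for each gene in turn. RefSeq promoter entries matched 8 of the 10 genes, and Thbs1 and Smoc2 had none. Each run is the 250 bases before a RefSeq transcript start, 5' to 3' on the strand of the gene, without any GENCODE M21 exon, and capitals mark matches to 5 short motifs searched on both strands. The Tnxb window (chr17:34670285-34670534, + strand) lies inside the gene span before an internal start, the Thbs2 window is chr17:14694263-14694512 (- strand), the Thbs3 window chr3:89214930-89215179 (+ strand) and the Spp1 window chr5:104434861-104435110 (+ strand).
Tnxb: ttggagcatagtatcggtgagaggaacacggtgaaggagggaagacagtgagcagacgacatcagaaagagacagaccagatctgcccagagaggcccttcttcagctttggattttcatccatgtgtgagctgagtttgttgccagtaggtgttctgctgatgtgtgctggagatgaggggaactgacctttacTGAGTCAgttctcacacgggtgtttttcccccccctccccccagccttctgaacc
Thbs2: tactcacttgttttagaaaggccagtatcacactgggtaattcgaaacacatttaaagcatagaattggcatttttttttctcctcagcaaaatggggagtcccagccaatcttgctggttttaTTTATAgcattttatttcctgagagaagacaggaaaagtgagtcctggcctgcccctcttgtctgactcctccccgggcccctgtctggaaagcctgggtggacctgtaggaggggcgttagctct
Thbs3: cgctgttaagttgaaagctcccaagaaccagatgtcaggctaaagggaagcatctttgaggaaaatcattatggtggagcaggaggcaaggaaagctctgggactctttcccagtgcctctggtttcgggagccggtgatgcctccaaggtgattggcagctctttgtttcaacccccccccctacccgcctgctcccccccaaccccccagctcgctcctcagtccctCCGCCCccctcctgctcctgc
Spp1: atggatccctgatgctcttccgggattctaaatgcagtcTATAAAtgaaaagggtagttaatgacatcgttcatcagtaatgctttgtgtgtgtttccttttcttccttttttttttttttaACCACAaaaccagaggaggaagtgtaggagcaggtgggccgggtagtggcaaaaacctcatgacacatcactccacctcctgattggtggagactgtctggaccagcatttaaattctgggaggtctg
The capitals in Tnxb are TGAGTCA, a match to the AP-1 motif TGANTCA 55 bases before the start, which 6.75% of all 32851 windows of this length hold. In Thbs3 they are the reverse complement of the SP1 motif GGGCGG, 21 bases before the start, found in 32.7% of windows. In Thbs2 they are the reverse complement of TATAAA, 126 bases before the start and thus not at the usual place of a TATA box, and 12.4% of windows hold that motif. In Spp1, TATAAA stands 211 bases before the start, and the reverse complement of the RUNX motif TGTGGT, held by 14.0% of windows, stands 128 bases before it. The TEAD motif GGAATG, held by 12.6% of windows, has no match in these 4 windows, and no matches overlap. A match is a stretch of letters, and no binding was measured here.

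Libraries held between 16238059 and 86609267 counts. Negative library 1 denotes the CD34 negative fraction of tumor 1, and so on. Cd34 itself, the sorting marker, stood at 74.3 ± 30.2 CPM (counts scaled to a common library size with a composition factor; SD, n = 3) in the negative and 948 ± 571 in the positive libraries (log2 fold change -3.63 ± 0.44 SE, limma-voom, adjusted p = 0.0414). Negative library 3 stood apart: 159 genes that averaged 2 CPM or more in the other libraries had no count in it, against 1 to 31 such genes in the others, and its correlations with other libraries were 0.837 to 0.883. Fibroblast markers (Dcn, Lum, Pdgfra, Col1a2, Igfbp5) summed to 24064 to 37047 CPM in the negative and 25187 to 33415 in the positive libraries, whereas 5 epithelial markers summed to at most 131 CPM and 3 endothelial markers to at most 14.7. Pericyte markers (Rgs5 and Mcam) were higher in the negative libraries, at 41.7 to 46.7 against 4.41 to 17.5 CPM, and cycling markers (Mki67 and Top2a) stood at 6.63 to 43.4 against 30.8 to 209 CPM. Less RNA of a gene per cell and fewer cells that hold it cannot be told apart in such bulk libraries.

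The 10 genes took 2.86% to 3.37% of all counts in the negative and 2.13% to 3.46% in the positive libraries, and Postn and Sparc alone took 1.42% to 2.18%. Levels were compared between genes per kilobase of gene length (RPKM). On this scale, Postn was highest with a mean of 4017 over the 6 libraries, followed by Sparc with 2761, and this order held in all 6. Thbs1 (625) and Thbs2 (580) came next and changed places between libraries, with Thbs1 above Thbs2 in 3 of 6. Smoc2 (344), Thbs4 (231), Spp1 (219) and Tnc (154) formed a middle group in which Thbs4 exceeded Spp1, and Spp1 exceeded Tnc, in 3 of 6 libraries each, so that their order was not settled. Thbs3 (84.0) and Tnxb (70.3) were lowest over the 6 libraries, with Thbs3 above Tnxb in 5 of 6, but the order at the foot differed by fraction. In the negative libraries Tnxb (21.1) and Thbs3 (55.5) were lowest on average, whereas in the positive libraries Spp1 (73.3) lay below Thbs3 (113) and Tnxb (119).

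The comparison of CD34 negative with CD34 positive CAFs asks whether these matrix genes differ between the fibroblast fractions that CD34 separates. Of the 10 genes, 1 passed the limma-voom test without a tumor term: Tnxb, lower in CD34 negative CAFs. Among all 14855 genes tested, 0.121% passed in either direction and 0.101% were lower. With the tumor as a block, the test that uses the pairing of the libraries, 5 of 10 passed: Spp1, Smoc2 and Thbs2 were higher and Tnxb and Thbs3 lower in CD34 negative CAFs. This stands beside 8.57% of all genes in either direction, 4.32% higher and 4.25% lower. The groups of 3 libraries did not overlap for 4 of the 10 genes (Tnxb, Thbs2, Thbs3 and Spp1), beside 20.4% of all genes. The difference had the same sign in all 3 tumors for 6 of 10, these 4 with Sparc and Smoc2, beside 46.3% of all genes. The median log2 fold change of the 10 genes was 0.24, with 8 above 0, and that of all genes was -0.03. Without both libraries of tumor 3, to which negative library 3 belongs, the block called 4 of the 10 genes, with Thbs2 lost. This stands beside 2019 of 15514 genes in the same fit.

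**Figure D1:**
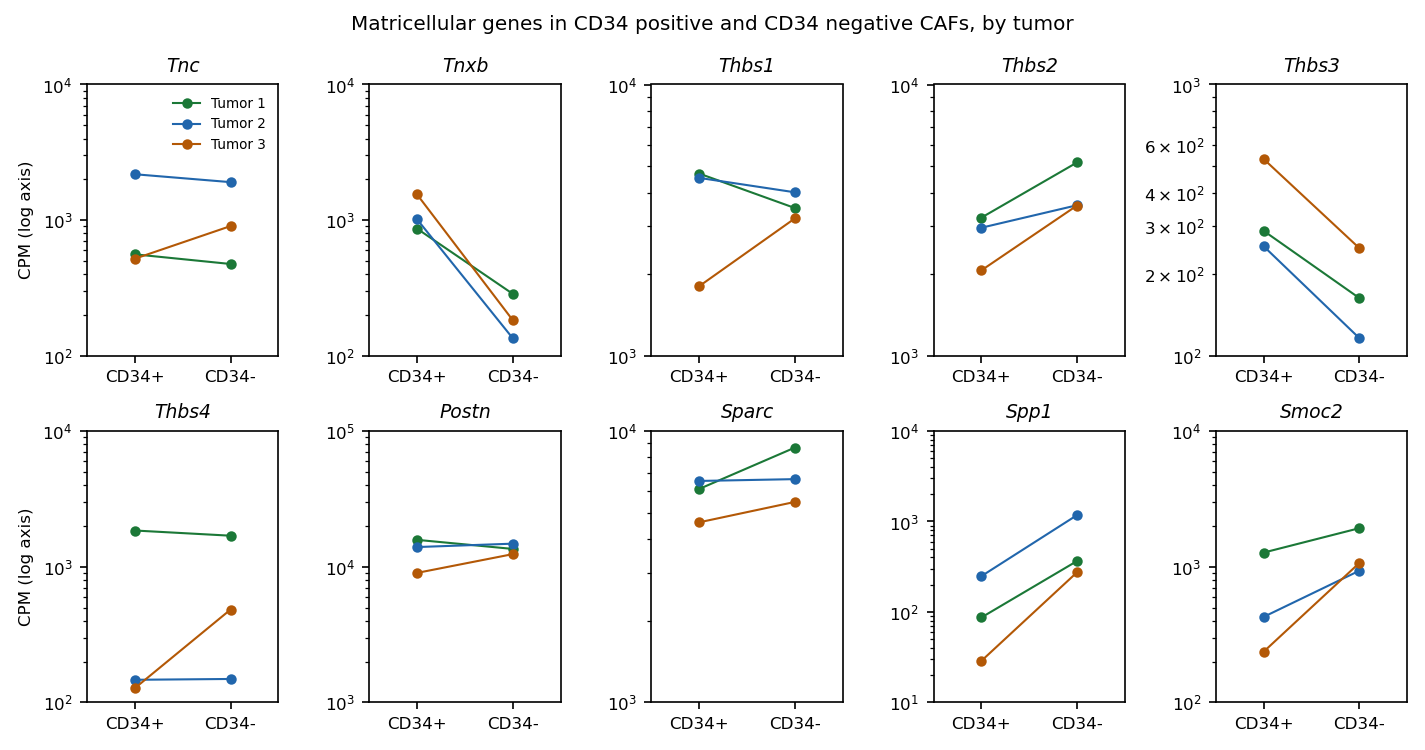
CPM of each gene (log axis, whose range differs between panels) in CD34 positive and CD34 negative CAFs, with a line joining the libraries of 1 tumor. The 3 lines of Tnxb and Thbs3 fall and those of Spp1, Smoc2 and Thbs2 climb toward CD34 negative, whereas those of Tnc stay nearly level in tumors 1 and 2.

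The tenascins parted. Tnxb encodes tenascin-X, the collagen-stabilising tenascin of loose connective tissue. It stood at 287, 135 and 184 CPM in negative libraries 1, 2 and 3 and at 866, 1015 and 1547 CPM in positive libraries 1, 2 and 3. Every positive library exceeded every negative one, and negative library 1 came closest to the positive group. The mean was 202 ± 77.5 CPM (SD, n = 3) in the negative and 1143 ± 358 in the positive libraries, a log2 fold change of -2.53 ± 0.32 (SE, limma-voom, adjusted p = 0.0434), or 5.77-fold lower in CD34 negative CAFs. With the block it was -2.52 ± 0.25 (adjusted p = 0.000753), and the differences within tumors 1, 2 and 3 were -1.60, -2.91 and -3.07. The fold change was -2.64 to -2.50 under 12 other settings and was called in 11 of them, the exception being edgeR without the block (adjusted p = 0.0643). Without the block the call was lost when negative library 2 (adjusted p = 0.0714), negative library 3 (0.123), positive library 2 (0.0996) or positive library 3 (0.109), or both libraries of tumor 2 (0.192) or of tumor 3 (0.233), were left out, whereas with the block it held without each tumor.

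Tnc, the tenascin of wound and tumor stroma, varied more between tumors than between CD34 fractions. It stood at 476, 1908 and 905 CPM in negative libraries 1, 2 and 3 and at 560, 2181 and 521 CPM in positive libraries 1, 2 and 3. Both libraries of tumor 2 were high and the groups overlapped over nearly their whole range. The means were 1096 ± 735 and 1087 ± 947 CPM, and the log2 fold change of 0.23 ± 0.62 did not pass (limma-voom, adjusted p = 0.899). With the block the 95% interval was -0.32 to 0.58. Tumor 3 differed in sign (0.80) from tumors 1 and 2 (-0.24 and -0.19), and without it the blocked value was -0.23.

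Within a library, the ratio of tenascin-X to tenascin-C does not depend on scaling between libraries. On the log2 scale per kilobase it was -1.16, -4.25 and -2.73 in negative libraries 1, 2 and 3 and 0.20, -1.53 and 1.14 in positive libraries 1, 2 and 3. The ratio was lower in the CD34 negative fraction of all 3 tumors, but the groups overlapped, since negative library 1 lay above positive library 2. The mean difference of -2.65 gave p = 0.2 in a two-sided exact permutation test (adjusted p = 0.4 over 3 ratios), where 0.1 is the smallest p that 3 against 3 allow, and the paired exact test gave its smallest p, 0.25.

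Among the thrombospondins, Thbs2 and Thbs3 moved in opposite directions while Thbs1 and Thbs4 did not pass in either test. Thbs1 encodes thrombospondin-1, an angiogenesis inhibitor that also activates latent TGF-beta. It stood at 3507, 4007 and 3211 CPM in negative libraries 1, 2 and 3 and at 4696, 4528 and 1807 CPM in positive libraries 1, 2 and 3. Positive library 3 was the lowest and the other 2 positive libraries the highest, so the groups overlapped completely. The log2 fold change was 0.08 ± 0.37 (limma-voom, adjusted p = 0.943), with a 95% interval of -0.40 to 0.58 under the block, and its sign turned without positive library 3 (-0.38) and without negative library 2 (-0.01).

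Thbs2 encodes the related thrombospondin-2, which restrains angiogenesis and matrix metalloproteinase activity and lacks the TGF-beta activating sequence. It stood at 5162, 3590 and 3582 CPM in negative libraries 1, 2 and 3 and at 3232, 2967 and 2066 CPM in positive libraries 1, 2 and 3. The lowest negative library lay just above the highest positive one. Means were 4111 ± 910 and 2755 ± 611 CPM, and the log2 fold change of 0.575 ± 0.26 passed with the block (0.59 ± 0.14, limma-voom, adjusted p = 0.0354) but not without it (adjusted p = 0.365). The blocked call was lost without tumor 1 (adjusted p = 0.0581), tumor 2 (0.0667) or tumor 3 (0.0654), with the tumor as a random effect (0.122) and in edgeR with the block (0.125), and it held in DESeq2 with the block (0.00459). The difference was 0.68, 0.28 and 0.79 in tumors 1, 2 and 3, so tumor 2 showed the least. The ratio of Thbs2 to Thbs1 per kilobase was 0.50 higher on the log2 scale in CD34 negative CAFs (exact permutation p = 0.3, adjusted p = 0.4) and was lower in 1 of 3 tumors.

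Thbs3 encodes a pentameric thrombospondin best known from developing cartilage and bone. Its values were 163, 116 and 250 CPM in negative libraries 1, 2 and 3 and 289, 254 and 532 CPM in positive libraries 1, 2 and 3. Each positive library exceeded all negative ones, although positive library 2 was only just above negative library 3, and tumor 3 was highest in both fractions. Means were 177 ± 67.6 and 358 ± 151 CPM. The log2 fold change of -1.02 ± 0.35 missed the threshold without the block (limma-voom, adjusted p = 0.246) and passed with it (-1.01 ± 0.13, adjusted p = 0.00227). The differences in tumors 1, 2 and 3 were -0.82, -1.12 and -1.09, close to one another, and the blocked call held without each tumor (log2 fold change -1.10 to -0.96) and in edgeR and DESeq2 with the block.

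Thbs4, the thrombospondin of tendon, muscle and reactive stroma, varied more by tumor than by fraction. Its values were 1692, 149 and 483 CPM in negative libraries 1, 2 and 3 and 1848, 147 and 128 CPM in positive libraries 1, 2 and 3. Both libraries of tumor 1 were high, both of tumor 2 low, and the fractions differed by much in tumor 3 only, so the groups overlapped. The log2 fold change was 0.46 ± 1.15 (limma-voom, adjusted p = 0.889), and 0.61 ± 0.33 with the block (adjusted p = 0.315). Within tumors 1, 2 and 3 the difference was -0.13, 0.02 and 1.92. Leaving out tumor 1 or tumor 2 from the blocked fit gave a call (0.96, adjusted p = 0.0231, and 0.95, adjusted p = 0.00252), whereas leaving out tumor 3 gave -0.07 (adjusted p = 0.805). The ratio of Thbs4 to Thbs3 per kilobase was 1.62 higher on the log2 scale in CD34 negative CAFs and higher in all 3 tumors, with an exact permutation p of 0.4 (adjusted p = 0.4).

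**Figure D2:**
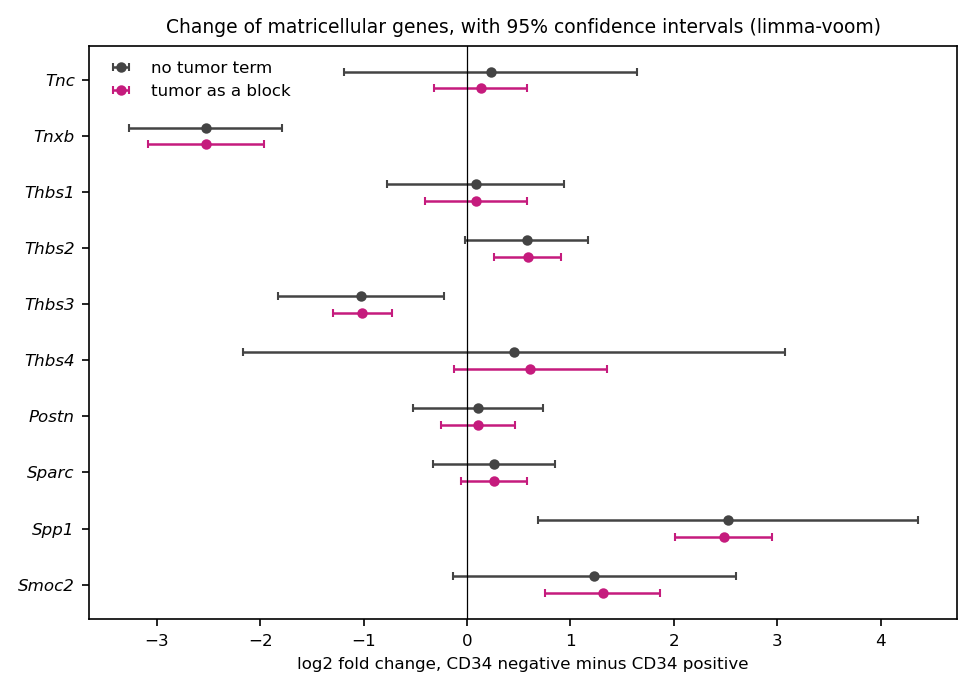
Log2 fold change of each gene, CD34 negative minus CD34 positive, with 95% confidence intervals from limma-voom without a tumor term and with the tumor as a block. The blocked intervals of Tnxb and Thbs3 lie below 0, those of Thbs2, Spp1 and Smoc2 above 0, and those of Tnc, Thbs1, Thbs4, Postn and Sparc include 0.

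The collagen-binding pair Postn and Sparc was abundant in both fractions. Postn encodes periostin, which links collagen to tenascin-C and signals through alpha-v integrins. It stood at 13523, 14783 and 12377 CPM in negative libraries 1, 2 and 3 and at 15774, 13959 and 9004 CPM in positive libraries 1, 2 and 3. Positive library 3 was the lowest, and the remaining values lay close together in both groups. The log2 fold change was 0.10 ± 0.27 (limma-voom, adjusted p = 0.897), and the blocked 95% interval of -0.25 to 0.47 bounds the difference more tightly than for the other genes that did not pass, apart from Sparc. Its sign turned without positive library 3 (-0.14) and without both libraries of tumor 3 (-0.093, and -0.089 with the block).

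Sparc encodes the calcium- and collagen-binding glycoprotein SPARC (osteonectin), which assists collagen fibril assembly. Its values were 8687, 6648 and 5479 CPM in negative libraries 1, 2 and 3 and 6117, 6546 and 4609 CPM in positive libraries 1, 2 and 3. Negative library 1 stood above the rest, positive library 3 was lowest, and the groups overlapped. The difference was above 0 in all 3 tumors but small in tumor 2 (0.51, 0.02 and 0.25 in tumors 1, 2 and 3). The log2 fold change of 0.26 ± 0.26 did not pass (limma-voom, adjusted p = 0.685), nor with the block (95% interval -0.06 to 0.58, adjusted p = 0.316).

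Spp1 encodes osteopontin, a phosphoprotein of bone that fibroblasts, macrophages and tumor cells also secrete and that binds CD44 and alpha-v integrins. Its values were 365, 1175 and 274 CPM in negative libraries 1, 2 and 3 and 86.9, 249 and 28.8 CPM in positive libraries 1, 2 and 3. Negative library 2 was highest, and within the positive group library 2 was highest too, close to but below the lowest negative library. Means were 605 ± 496 and 121 ± 114 CPM. The log2 fold change of 2.52 ± 0.80, or 5.75-fold higher, missed the threshold without the block (limma-voom, adjusted p = 0.217) and passed with it (2.48 ± 0.21, adjusted p = 0.000381). Without the block, the value was 1.74 without positive library 3 and 3.38 without positive library 2, and neither passed (adjusted p = 0.459 and 0.145). The differences within tumors 1, 2 and 3 were 2.07, 2.24 and 3.25. The blocked call held without each tumor (2.15 to 2.64), with the tumor as a random effect (adjusted p = 0.0362), in edgeR with the block (0.0105) and in DESeq2 with the block (4.83e-23).

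Osteoblast, macrophage and epithelial markers stand beside the Spp1 result because osteoblasts, macrophages and tumor cells are known sources of osteopontin, although the depletion of CD45-positive cells and the GFP gate would remove macrophages. The 5 epithelial markers summed to 48.2 to 131 CPM in the negative and 17.0 to 127 CPM in the positive libraries. All 5 were higher in CD34 negative CAFs in limma-voom without the block, as was Spp1, and 0 passed with or without the block. Osteoblast markers (Bglap, Ibsp and Dmp1) summed to at most 0.862 CPM in any library, and Ibsp was at 0 in all 6. Macrophage markers (C1qa, Cd68, Fcgr1, Fcgr2b and Cd163) summed to 13.3 to 16.3 CPM in the negative and 8.93 to 16.3 in the positive libraries, 3 of the 5 could be tested and 0 passed in limma-voom with or without the block. Fcgr2b held most of that sum (means of 12.5 CPM in the negative and 10.9 CPM in the positive libraries). In the same order, C1qa averaged 0.957 and 0.749 CPM and Cd68 0.880 and 1.25 CPM. The pericyte marker Mcam was higher in CD34 negative CAFs with the block (39.3 ± 5.66 against 9.65 ± 6.28 CPM, adjusted p = 0.00251), in the same direction as Spp1, Smoc2 and Thbs2, and the muscle marker Des was too (6.85 ± 5.46 against 1.11 ± 0.33 CPM, adjusted p = 0.0362). The muscle marker Acta1, below 1 CPM, went the other way without passing (blocked log2 fold change -0.86, limma-voom, adjusted p = 0.779). Myf5 and Myog were too low to test. The 4 muscle markers summed to 2.80 to 13.7 CPM in the negative and at most 1.85 CPM in the positive libraries. Des held most of the sum in each negative library, and the list as a whole was not tested. Mki67 (15.6 ± 9.47 against 56.7 ± 45.6 CPM, adjusted p = 0.00233 with the block) and Top2a (9.98 ± 9.92 against 45.0 ± 52.7 CPM, adjusted p = 0.00164) were lower, as were Tnxb and Thbs3. Of the fibroblast markers, Dcn (adjusted p = 0.00154) and Lum (0.014) were lower with the block. The part of these in the results was not tested.

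Smoc2 encodes a calcium-binding relative of SPARC that promotes growth factor signaling and cell migration. Its values were 1921, 933 and 1063 CPM in negative libraries 1, 2 and 3 and 1270, 426 and 236 CPM in positive libraries 1, 2 and 3. Tumor 1 was high in both fractions, and positive library 1 exceeded negative libraries 2 and 3, so the groups overlapped although the negative library was higher within every tumor. Means were 1306 ± 537 and 644 ± 550 CPM, with a log2 fold change of 1.23 ± 0.60 (limma-voom, adjusted p = 0.395) and 1.31 ± 0.25 with the block (adjusted p = 0.0124). The difference was 0.60, 1.13 and 2.17 in tumors 1, 2 and 3. The blocked call held without each tumor, with the value down to 0.85 without tumor 3, and in DESeq2 with the block (adjusted p = 4.8e-05), but not with the tumor as a random effect (0.132) or in edgeR with the block (0.0704). Without the block, leaving out both libraries of tumor 1 gave a call (1.67, adjusted p = 0.0482), and leaving out positive library 1 or positive library 3 gave 1.99 (adjusted p = 0.0836) and 0.67 (0.701).

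How much of each gene's variance over the 6 libraries lay between tumors and how much between CD34 fractions was described on the log2 CPM scale, with no test. Tnxb was at one end, with 90.8% between fractions and 3.0% between tumors. At the other end stood Tnc, with 92.3% between tumors and 0.5% between fractions, and Thbs4, with 88.5% and 3.4%. Thbs1 (65.0%), Sparc (66.0%) and Postn (67.6%) also had most of their variance between tumors. Thbs2, Thbs3 and Spp1 divided theirs, with 54.8%, 55.0% and 56.6% between fractions and 37.2%, 44.0% and 41.0% between tumors, and Smoc2 had 40.9% and 48.7%. Over all genes tested, the medians were 20.6% between fractions and 45.5% between tumors. Positive library 3 had the lowest CPM of all 6 libraries for 7 of the 10 genes, and tumor 3 the highest within-tumor difference for 7 of 10. None of the 10 genes was at 0 in any library. The spread was greatest for Spp1, whose highest library exceeded its lowest 40.8-fold, and least for Postn, with 1.75-fold.

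**Figure D3:**
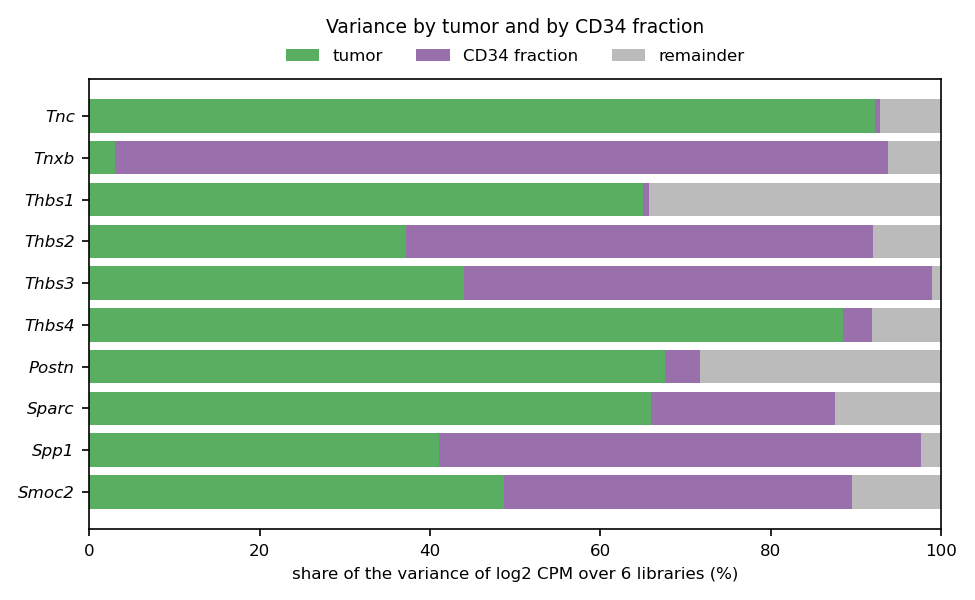
Share of the variance of log2 CPM over the 6 libraries that lies between tumors, between CD34 fractions and in the remainder, in percent, for each gene. Tnxb has 90.8% between fractions, whereas Tnc and Thbs4 have 92.3% and 88.5% between tumors.

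Further matricellular genes, receptors, modifying enzymes and TGF-beta ligands were counted from lists of 42 genes, of which 38 could be tested. In limma-voom without the block, 0 of 38 passed and 12 had an unadjusted p under 0.05, beside 2128 of all 14855 genes. Without the block, edgeR called 0 of the 38, beside 9 of 14855 genes, and DESeq2 called 6, beside 674 of 14243. With the block 7 were higher and 4 lower in CD34 negative CAFs, beside 4.32% higher and 4.25% lower among all genes, and 16 in all passed without tumor 3, beside 2019 of 15514 genes. Their median log2 fold change was 0.03 (20 above and 18 below 0), against -0.03 over all genes. The difference had the same sign in all 3 tumors for 23 of the 38, beside 46.3% of all genes.

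Of the 3 TGF-beta ligands, 1 passed with the block, beside 8.57% of all genes in either direction. Tgfb1, whose latent form thrombospondin-1 can activate and which raises the expression of many matrix genes, stood at 70.0, 102 and 96.4 CPM in negative libraries 1, 2 and 3 and at 24.5, 44.4 and 27.4 CPM in positive libraries 1, 2 and 3. The groups did not overlap, and the log2 fold change was 1.45 ± 0.17 with the block (limma-voom, adjusted p = 0.00167) and 1.40 without it (adjusted p = 0.0811). Tgfb3 had a blocked log2 fold change of 1.11 (adjusted p = 0.0548) and Tgfb2 one of -0.38 (adjusted p = 0.383), neither past the threshold.

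Among 19 receptors and binding partners, 4 were higher and 2 lower with the block, beside 8.57% of all genes in either direction. Itgb5, the integrin beta subunit that pairs with alpha-v to bind osteopontin and periostin, stood at 1332, 1301 and 1041 CPM in negative libraries 1, 2 and 3 and at 572, 536 and 307 CPM in positive libraries 1, 2 and 3. The groups were well apart, with a blocked log2 fold change of 1.42 ± 0.14 (limma-voom, adjusted p = 0.000851; without the block, adjusted p = 0.0858). Itgav, its alpha-v partner, differed by a blocked 0.03 (adjusted p = 0.931). Itga8, an alpha subunit for osteopontin and tenascin-C, was higher by 1.40 (adjusted p = 0.00724), Lrp1, the endocytic receptor that clears thrombospondins, by 0.74 (0.0107), and the syndecan Sdc1 by 0.80 (0.0072), all on the log2 scale with the block. In the other direction, Itgb3, the second beta partner of alpha-v, had a blocked log2 fold change of -0.99 (adjusted p = 0.00505). Cd44, the osteopontin and hyaluronan receptor, stood at 251, 365 and 279 CPM in negative libraries 1, 2 and 3 and at 419, 544 and 596 CPM in positive libraries 1, 2 and 3. The groups did not overlap, with a blocked log2 fold change of -0.81 ± 0.14 (adjusted p = 0.00853), opposite in sign to that of Spp1.

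Of 16 other matricellular genes, 12 were tested (Tnr, Smoc1, Spock3 and Ccn6 were too low), and with the block 2 were higher and 2 lower, beside the same 8.57% of all genes. Ccn2, which encodes connective tissue growth factor, stood at 2379, 3378 and 2486 CPM in negative libraries 1, 2 and 3 and at 1555, 1711 and 782 CPM in positive libraries 1, 2 and 3. The groups did not overlap, with a blocked log2 fold change of 1.09 ± 0.19 (limma-voom, adjusted p = 0.0087). Its relative Ccn4, a Wnt1-inducible gene, was higher by 0.87 (adjusted p = 0.0224), whereas Ccn1 (-0.10), Ccn3 (-0.06) and Ccn5 (0.62, adjusted p = 0.0724) did not pass. The SPARC relative Fstl1 was lower in CD34 negative CAFs, at 4806 ± 362 against 7302 ± 1093 CPM (blocked log2 fold change -0.59 ± 0.13, adjusted p = 0.0228). Tgfbi, a periostin relative, was lower too (-1.51 ± 0.24, adjusted p = 0.00674), at 26.1 ± 15.1 against 83.1 ± 72.0 CPM. SPARC-like 1 (Sparcl1), the closest relative of Sparc, had a blocked log2 fold change of 0.94 (adjusted p = 0.0822) with opposite signs in tumor 1 (-0.15) and in tumors 2 and 3 (1.14 and 1.80). None of the 4 modifying enzymes, Pofut2 and B3glct, which glycosylate thrombospondin repeats, the kinase Fam20c, which phosphorylates osteopontin, and the protease Bmp1, passed in limma-voom with or without the block, and 0 of the 4 had an unadjusted p under 0.05 without it.

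**Figure D4:**
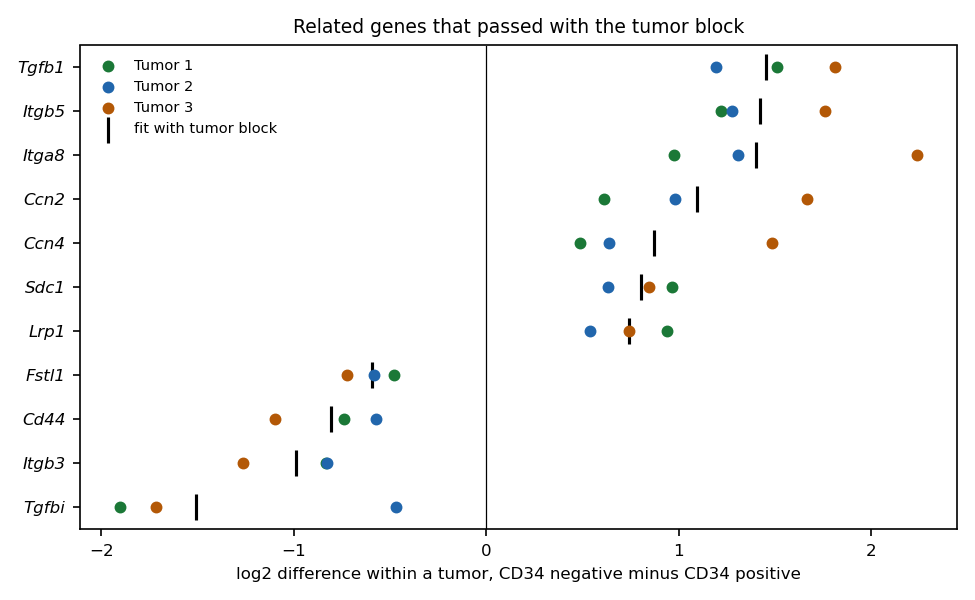
Log2 difference, CD34 negative minus CD34 positive, within each tumor (points) and in limma-voom with the tumor as a block (vertical marks) for the 11 related genes that passed with the block. The genes were chosen by that blocked fit, so the 3 tumors of a gene lying on 1 side of 0 is no separate result, and the blocked values run from Tgfb1 at 1.45 to Tgfbi at -1.51.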

How the data were processed

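RNA was extracted from sorted CAFs with a column kit and libraries were made from poly(A) RNA with the TruSeq RNA v2 protocol and sequenced on an Illumina instrument. The authors aligned reads to GRCm38/mm10 and counted them per NCBI gene with featureCounts in Rsubread (strand setting not given in the sources used here). The deposited values are raw counts, without normalization and with replicates apart. Gene symbols and lengths are those of the table, and positions and promoters are RefSeq's of GRCm38.p6.

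Groups and tumor numbers came from the sample titles. Genes were filtered with filterByExpr (minimum count 10) and scaled by the trimmed mean of M-values, and limma-voom (limma 3.58.1, edgeR 4.0.16, R 4.3.3) compared the groups, with Benjamini-Hochberg adjustment over 14855 genes and a two-sided threshold of 0.05. This follows the study's methods as written, which name no tumor term. The study also removed genes without annotation, whereas the 1310 genes without a symbol were kept here before the filter. The study reported far more genes higher in CD34 negative CAFs than the 3 called here without the block, so its calls were not reproduced. With the block, 642 genes were higher. Genes with an official symbol only were an alternative. The tumor number pairs the libraries, since each pair was sorted from 1 tumor, and deviations from the group means correlated within tumors 1, 2 and 3 at 0.373, 0.350 and 0.219. The fit with the tumor as a block is therefore given where it changes a call. Replicates are separate tumors. Whether they came from separate mice was not stated. Ratios of genes per kilobase (0.5 count added) were compared by exact permutation (SciPy 1.17.1) over 20 splits, and adjusted over 3 ratios. CPM used the scaled library size, and RPKM was CPM per kilobase of gene length. Alternatives covered scaling, filter, annotation, edgeR, DESeq2 (1.42.0), quality weights, a random tumor effect, each library and each tumor. Library totals were 16238059 to 86609267 counts, and replicates differed by a chi-square of 133 to 239 per gene, far above counting error. The scripts were tested on simulated data with 200 known changes of 2 on the log2 scale. With the block, limma-voom, edgeR and DESeq2 found 195, 195 and 196 of them and made 18, 12 and 52 false calls. Without it they found 149, 156 and 186 and made 0, 0 and 7 false calls. Blocked calls, those of DESeq2 most, are thus less strict than the unblocked ones.

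The 10 genes are named in full. Related genes are named where they passed, with a few named after their values were seen (Itgav, Ccn1, Ccn3, Ccn5, Sparcl1, Tgfb2, Tgfb3). The members and lists were chosen with earlier results of these data known, and marker lists came from the study's marker table and general knowledge. Protein sequences were not used here.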

Additional observations from a re-analysis of the deposited data

How the results depend on the processing

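The tumor block changed the most. All genes called, 18 without it, numbered 1273 with limma-voom and the block, 703 with the tumor as a random effect, 575 in edgeR and 1730 in DESeq2 with the block. Without the block they numbered 32 with library totals alone, 9 in edgeR, 674 in DESeq2 and 161 with quality weights, and 0 to 86 when a library or tumor was left out, and with the block 851 to 2019 when a tumor was left out. Of the 10 matricellular genes, 1 was called in limma-voom without the block. With limma-voom and the block 5 were called, with the random effect 3, and with the block 3 in edgeR and 5 in DESeq2. In edgeR without the block 0 were called and 3 had an unadjusted p under 0.05, beside 1855 of all 14855 genes. With a library or tumor left out, 0 to 2 of the 10 were called without the block, and 4 to 5 with a tumor left out and the block. Of the 38 related genes, 0 were called in limma-voom, and 12 had an unadjusted p under 0.05, beside 2128 of all 14855 genes. With limma-voom and the block 11 were called, with the random effect 6, and with the block 6 in edgeR and 17 in DESeq2. Without the block 6 were called in DESeq2 and 2 with quality weights. With a library or tumor left out, 0 to 1 of the 38 were called without the block, and 12 to 17 with a tumor left out and the block.

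Log2 fold changes turned sign for genes that did not pass: Thbs1 in edgeR (-0.041) and DESeq2 (-0.053), and Thbs4 with quality weights (-0.086). Without the block and with a library or tumor left out, they ranged from -0.14 to 0.30 for Postn, -0.38 to 0.37 for Thbs1, -0.38 to 1.84 for Thbs4 and -0.29 to 0.80 for Tnc, and, with no change of sign, 1.74 to 3.38 for Spp1, 0.67 to 1.99 for Smoc2, 0.38 to 0.73 for Thbs2 and -1.32 to -0.69 for Thbs3. The cause was not tested. Tnxb, Thbs2, Thbs3, Sparc, Spp1 and Smoc2 kept their direction under every alternative run, and the 3 ratios kept theirs under the alternatives run for them, none reaching an exact p under 0.05, which the design does not allow. An exact permutation test by paired sign flips over tumors, the block for the ratios, gave p = 0.25 for Tnxb to Tnc, 0.5 for Thbs2 to Thbs1 and 0.25 for Thbs4 to Thbs3.

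A fit with both libraries of a tumor left out and the block kept has few residual degrees of freedom and leans on the spread shared across genes. Fits that leave out 1 library keep at least 2 per group. Depth limited few values, since the 10 genes had counts in every library; 4 related genes were too low to test.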

Other observations

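Genes with the profile most like Tnxb and most like Tnc over the 6 libraries were looked up among 8934 tested genes with a symbol and a mean log2 CPM of at least 3, as a description without a test. The libraries share tumors and fractions. The genes named were picked as the most alike of the 8934 over only 6 libraries, which by itself favors high values. For Tnxb they were Gm6158 (Pearson r = 0.997), Cyb5a (0.992) and Ubr3 (0.991), with log2 fold changes of -0.33, -0.56 and -0.05, all smaller in size than that of Tnxb. For Tnc they were Cemip (0.984), Serpinb6b (0.982) and Gm5526 (0.98), with log2 fold changes of -0.16, -0.31 and 0.06. Among the 10 genes, Thbs1 and Postn correlated at 0.974, Thbs2 and Smoc2 at 0.92, and Thbs3 and Spp1 at -0.966 over the same 6 libraries. These are a selection from all pairs of the 10 genes, given without a test. Thbs2 and Smoc2 are neighbors, but Thbs2 and Sparc, on different chromosomes, correlated at 0.885.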
